A study of Mus musculus with 7 samples.

Results

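Of the 49315 gene identifiers in the count tables, 6 were followed here, picked by gene symbol. They were the 3 genes Atp1b1, Atp1b2 and Atp1b3 for beta subunits of the sodium pump and the 3 genes Slc12a2, Slc12a5 and Slc12a7 for cation-chloride cotransporters. All 6 passed the filter on low counts that left 18352 genes for testing.

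The sodium pump (Na,K-ATPase) exchanges sodium for potassium across the plasma membrane at the cost of ATP, and its catalytic alpha subunit needs a glycosylated beta subunit to leave the endoplasmic reticulum and work at the cell surface. Cation-chloride cotransporters use the gradients set by the pump: sodium-potassium-chloride cotransporters such as the product of Slc12a2 (NKCC1) bring chloride into the cell, whereas potassium-chloride cotransporters such as those of Slc12a5 (KCC2) and Slc12a7 (KCC4) let it out. In glia and neurons the balance of both sets cell volume, potassium uptake and the direction in which chloride flows when GABA channels open.

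RNA was sequenced from primary mouse oligodendroglia, cultured cells of the lineage that makes myelin, with 1 library for each of 4 control and 3 knockout biological replicates. The control cells carried the genotype Klf13-wt. The knockout cells carried Klf13-ko, a constitutive loss of the gene for the Krüppel-like transcription factor KLF13 in all cells of the donor mice rather than in oligodendroglia alone. Cells of both groups came from brains of newborn mice of both sexes, were shaken off mixed glial cultures as oligodendrocyte precursor cells (OPCs) with depletion of microglia, and spent 6 days in SATO medium with thyroid hormone, which drives differentiation. How many pups went into a culture is not given in the sources used here.

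The libraries held 24507471 to 59596479 counts on genes, and levels are given as normalized counts, which are counts set to a common library size after scaling each library by its TMM factor. Between 6.03% and 18.0% of the counts fell on 3 genes that collect reads of ribosomal RNA, and this share passed 10% in 2 libraries of each group (control replicates 1 and 4, knockout replicates 1 and 3). The targeted gene Klf13 had 10670 to 12000 normalized counts in control libraries and 801.6 to 961.2 in the knockouts, 7.76% of the control mean. Summed markers of mature oligodendrocytes ranged from 1111000 to 1275000 normalized counts in the controls and from 316400 to 363000 in the knockouts, and all 12 of them were lower past the test. Of 12 OPC markers 3 were higher (Ptprz1, Vcan and Cacng4, named after their values were seen) and none was lower past the test. The labelled cell type therefore carried its defining markers in every library, and markers of neurons, astrocytes, microglia and fibroblasts were also present in all of them.

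In the knockout, 2 of the 6 genes were higher and 2 were lower past the test, an adjusted p no higher than 0.05 in edgeR's quasi-likelihood test over all 18352 genes. The beta subunit gene Atp1b1 rose 2.19-fold while Atp1b3 fell to 57.3% of the control mean, and the chloride importer Slc12a2 fell to 36.3% while the neuronal chloride exporter Slc12a5 rose 3.47-fold. Atp1b2 and Slc12a7 did not pass the test. Over all genes tested, 11.6% were higher and 12.2% were lower past the same test. With a log2 fold change of 1 or more in size as well, Atp1b1 and Slc12a5 were called higher and Slc12a2 was called lower, against 3.97% and 3.08% of all genes tested. In 5 of the 6 genes no library of either group lay within the range of the other, which held for 36.2% of the genes tested. The median log2 fold change was -0.01 over the 6 genes and -0.00 over all genes tested.

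**Figure D1:**
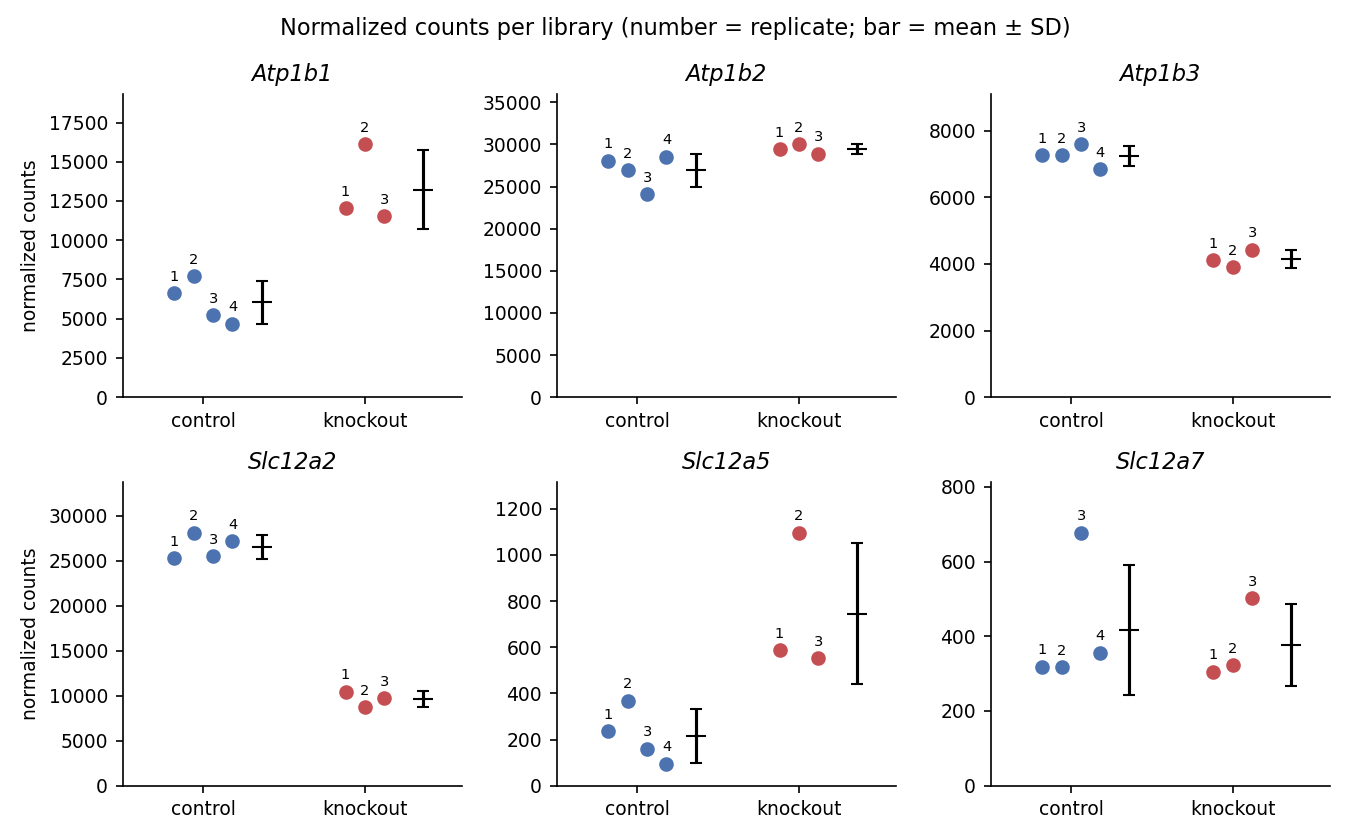
Normalized counts (vertical axes, each from 0) of the 6 genes in each library, with controls in blue and knockouts in red, the replicate number above each point and the mean ± SD as a bar beside each group. The groups stood apart in Atp1b1, Atp1b2, Atp1b3, Slc12a2 and Slc12a5 and overlapped in Slc12a7, where control replicate 3 was the highest library at 677.8.

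Atp1b1 encodes the beta 1 subunit, the form that most tissues pair with the catalytic subunit. The gene (ENSMUSG00000026576) lies on the minus strand at chr1:164437109-164458355 of GRCm38. It had 6634, 7698, 5214 and 4663 normalized counts in control replicates 1 to 4 and 12044, 16125 and 11529 in knockout replicates 1 to 3. Every knockout library was above every control library, and knockout replicate 2 was the highest. The mean rose from 6052 ± 1375 (SD, n = 4) to 13230 ± 2518 (SD, n = 3) (log2 fold change 1.13 with a standard error of 0.19, 95% confidence interval 0.67 to 1.58, adjusted p = 0.00765 in edgeR's quasi-likelihood test). Without knockout replicate 2 the gene still passed edgeR's quasi-likelihood test at an adjusted p of 0.0306, but its log2 fold change of 0.96 was no longer past 1. Exons of Atp1b1 share 575 of their 3081 bases (18.7%) with Nme7 on the opposite strand, and the strand setting of the counting is not given in the sources used here. Nme7 itself had 520.4 ± 55.5 and 637.3 ± 28.1 normalized counts in control and knockout, far below Atp1b1 in both. These values do not show how reads on the shared bases were assigned, which was not tested.

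Atp1b2 encodes the beta 2 subunit, also known as adhesion molecule on glia, at chr11:69599736-69605942 (minus strand, ENSMUSG00000041329). Its mean count over the 7 libraries was above that of 99.4% of the genes tested, with 28067, 26912, 24105 and 28519 normalized counts in control libraries, against 29450, 30031 and 28883 in knockout libraries. The knockout libraries lay just above the controls without overlap, and the means differed by less than the range of the controls. The means of 26900 ± 1983 (SD, n = 4) and 29450 ± 574 (SD, n = 3) gave a log2 ratio of 0.13 (standard error 0.07, 95% confidence interval -0.03 to 0.30, adjusted p = 0.230 in edgeR's quasi-likelihood test). The interval leaves room for a rise of up to 0.30 on the log2 scale and for almost no fall.

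Atp1b3 encodes the beta 3 subunit and lies at chr9:96332655-96364442 (minus strand, ENSMUSG00000032412). Its libraries varied little within each group, with 7267, 7264, 7599 and 6838 normalized counts in control libraries, against 4118, 3898 and 4425 in knockout libraries. All knockout libraries were below all controls by a wide margin. The mean fell from 7242 ± 312 (SD, n = 4) to 4147 ± 265 (SD, n = 3) (log2 fold change -0.80 with a standard error of 0.06, 95% confidence interval -0.95 to -0.65, adjusted p = 0.000297 in edgeR's quasi-likelihood test).

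With Atp1b1 higher and Atp1b3 lower, the make-up of beta subunit transcripts was compared next. The comparison was prompted by those values, so that the tests on the Atp1b1 and Atp1b3 shares are no independent support for them. Shares were computed from normalized counts per kilobase of exon, since the 3 genes differ in exon length. The Atp1b1 share was 17.8%, 20.6%, 15.7% and 13.3% in control libraries, against 30.4%, 36.8% and 29.5% in knockout libraries. The Atp1b3 share was 25.2%, 25.1%, 29.5% and 25.2% in control libraries, against 13.4%, 11.5% and 14.6% in knockout libraries. Per kilobase, Atp1b3 exceeded Atp1b1 in all 4 controls and Atp1b1 exceeded Atp1b3 in all 3 knockouts. By counts without division by exon length, control replicate 2 had more of Atp1b1 (7698) than of Atp1b3 (7264), and the differences in share were 13.1 points for Atp1b1 and -9.19 points for Atp1b3. Atp1b2 stayed the main beta subunit transcript in all 7 libraries at 51.7% to 61.5%. The Atp1b1 share was 15.4 percentage points higher and the Atp1b3 share 13.1 points lower in the knockout (exact permutation test, two-sided, p = 0.0571 for each and 0.0857 after adjustment over the 3 shares). With 35 ways to assign 7 libraries to the groups, 0.0571 is the smallest p that this two-sided test, which doubles the one-sided p, can give. The Atp1b2 share of 56.9% ± 3.27 (SD, n = 4) and 54.6% ± 2.47 (SD, n = 3) differed less than the spread between replicates (exact permutation p = 0.457). The 3 shares add up to 100% and are not independent of each other. The summed level of the 3 genes was 11580 ± 641 (SD, n = 4) and 13240 ± 850 (SD, n = 3) normalized counts per kilobase, without overlap between the groups (exact permutation test, p = 0.0571).

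**Figure D2:**
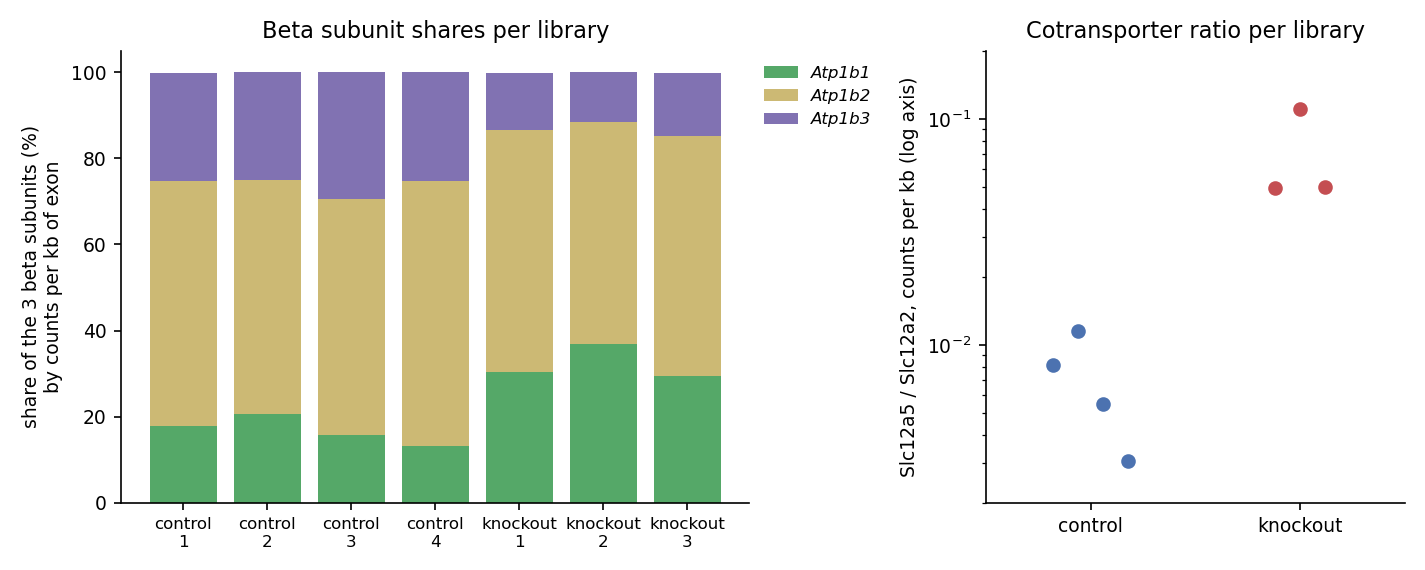
Left, share of each beta subunit gene among the 3 beta subunits (vertical axis in percent, by counts per kilobase of exon) in each library. Right, ratio of Slc12a5 to Slc12a2 by counts per kilobase on a log axis, 1 point per library. The Atp1b1 share was 13.3% to 20.6% in the controls and 29.5% to 36.8% in the knockouts, and the ratio lay between 0.00307 and 0.0115 in the controls and between 0.0492 and 0.11 in the knockouts.

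Slc12a2 encodes NKCC1, the inward cotransporter of sodium, potassium and chloride, at chr18:57878678-57946821 (plus strand, ENSMUSG00000024597). Its mean count over the 7 libraries was above that of 98.8% of the genes tested. It had 25307, 28139, 25509 and 27190 normalized counts in control libraries, against 10439, 8734 and 9746 in knockout libraries. No knockout library came near the lowest control. The mean fell 2.75-fold from 26540 ± 1362 (SD, n = 4) to 9640 ± 857 (SD, n = 3) (log2 fold change -1.46 with a standard error of 0.08, 95% confidence interval -1.65 to -1.27, adjusted p = 6.17e-05 in edgeR's quasi-likelihood test). By p-value the gene ranked 50 among the 18352 genes tested. Slc12a2 and the summed markers of mature oligodendrocytes were both lower in all knockout libraries than in all controls. In RNA from a whole culture, fewer cells of a type and less RNA per cell cannot be told apart.

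Slc12a5 encodes KCC2, the outward potassium-chloride cotransporter known from neurons, at chr2:164960802-164999731 (plus strand, ENSMUSG00000017740). Its level was low, with 102 to 1596 counts per library before normalization. It had 234.9, 368.0, 160.0 and 95.48 normalized counts in control libraries, against 586.8, 1097 and 552.9 in knockout libraries. All knockout libraries were above all controls, but the controls alone spanned 3.86-fold from replicate 4 to replicate 2. The mean rose from 214.6 ± 117 (SD, n = 4) to 745.6 ± 305 (SD, n = 3) (log2 fold change 1.80 with a standard error of 0.45, 95% confidence interval 0.74 to 2.86, adjusted p = 0.0282 in edgeR's quasi-likelihood test). The call depended on single libraries. With edgeR's quasi-likelihood test the adjusted p was 0.0528 without control replicate 1, 0.0545 without control replicate 3, 0.0526 without knockout replicate 1 and 0.105 without knockout replicate 2, where the log2 fold change was 1.41. The direction was the same in each of these fits.

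Slc12a5 and Atp1b1 ordered the 7 libraries in the same way. From lowest to highest, both ran through control replicates 4, 3, 1 and 2 and then knockout replicates 3, 1 and 2. The summed level of 18 neuron markers had this same order, at 27240, 29020, 41390 and 46760 normalized counts in those controls and 83400, 86710 and 109600 in those knockouts. Taken singly, only 9 of the 17 neuron markers tested had this order, which 351 of all 18352 genes tested (1.91%) had. Of the 17 neuron markers tested, 14 were higher and none was lower past the test, with Dcx (doublecortin, of young neurons) at 4636 ± 2834 and 24960 ± 2765 normalized counts and Map2 (a neuronal microtubule protein) at 18880 ± 2667 and 31410 ± 1411. The neurofilament genes Nefl (log2 fold change -0.45) and Nefm (-0.73), named after their values were seen, had lower means in the knockout without passing the test. The step between the groups is itself part of this order. None of the 18 neuron markers was at 0 in all libraries. The part of neurons in the values of Slc12a5 and Atp1b1 was not tested.

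The ratio of Slc12a5 to Slc12a2 compares a transporter that lets chloride out with one that brings it in, within 1 library. By counts per kilobase of exon it was 0.00813, 0.0115, 0.00549 and 0.00307 in control libraries, against 0.0492, 0.11 and 0.0497 in knockout libraries. The lowest knockout was above the highest control, and the Slc12a2 transcript was the more abundant one in all 7 libraries. This separation follows from the genes themselves, which each stood apart in opposite directions, and is no independent support. The geometric means of 0.0063 and 0.0645 were 10.3-fold apart, a log2 difference of 3.36 with SDs of 0.81 (n = 4) and 0.67 (n = 3) (exact permutation test, two-sided, p = 0.0571, the smallest p that this test can give). With 1 library left out at a time the log2 difference ranged from 2.97 to 3.65.

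Slc12a7 encodes KCC4, a potassium-chloride cotransporter found in many tissues, at chr13:73763697-73816743 (plus strand, ENSMUSG00000017756). It had 318.6, 317.8, 677.8 and 356.6 normalized counts in control libraries, against 305.1, 323.1 and 501.9 in knockout libraries. The groups overlapped, and replicate 3 was the highest library in each. The means of 417.7 ± 174 (SD, n = 4) and 376.7 ± 109 (SD, n = 3) gave a log2 ratio of -0.14 (standard error 0.32, 95% confidence interval -0.89 to 0.60, adjusted p = 0.787 in edgeR's quasi-likelihood test). Without control replicate 3 the log2 fold change was 0.19 (adjusted p = 0.570 in edgeR's quasi-likelihood test), so that its direction rested on this library. The confidence interval from all 7 libraries holds both signs. Summed microglia markers were also highest in replicate 3 of each group, at 78700 normalized counts against 16690 to 19690 in the other controls and at 35050 against 16160 and 20380 in the other knockouts. So were the fibroblast and mural cell sum (77020 in control replicate 3, 18740 in knockout replicate 3) and the endothelial sum (1130 and 567.4). None of the 9 microglia markers passed the test between the groups. The part of any of these cell types in the Slc12a7 values was not tested.

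**Figure D3:**
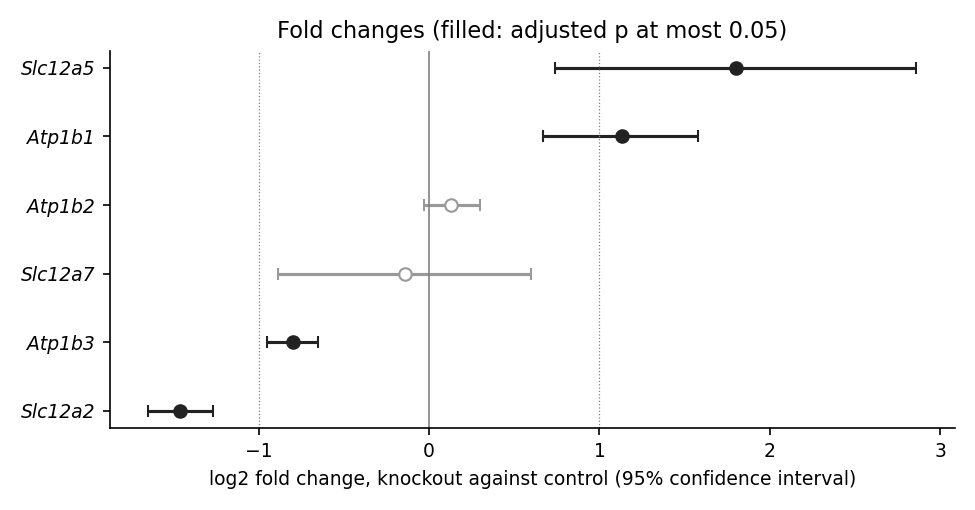
Log2 fold change of the 6 genes, knockout against control (horizontal axis), with the 95% confidence interval as a bar and dotted lines at -1 and 1. Filled points are at an adjusted p no higher than 0.05 in edgeR's quasi-likelihood test. Slc12a5 (1.80) and Atp1b1 (1.13) lay on the higher side, Atp1b3 (-0.80) and Slc12a2 (-1.46) on the lower side, and the intervals of Atp1b2 and Slc12a7 held 0.

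Other cell types that such cultures can hold were followed in the same way. Of 16 astrocyte markers 11 were higher and none was lower past the test, although S100b (35010 ± 9126 and 24130 ± 3422 normalized counts, adjusted p = 0.0923 in edgeR's quasi-likelihood test, named after its values were seen) was below all controls in every knockout library. Their summed level was 270900 to 641500 normalized counts in the controls and 405700 to 543400 in the knockouts, and the overlap came from control replicate 3, where Apoe alone stood at 428400. Without this library the control sums ended at 357700, below every knockout. Fibroblast and mural cell markers summed to 18010 to 77020 in the controls and 8025 to 18740 in the knockouts, endothelial markers to 457.5 to 1130 and 403.5 to 567.4, and choroid plexus and ependymal markers to 442.9 to 803.4 and 678.8 to 1070. From these 3 lists only Dcn of the fibroblast and mural cell markers and Cdh5 of the endothelial markers passed the test, both lower, and these names were chosen after their values were seen. With the replicate block, the fibroblast and mural cell markers Col1a1 (log2 fold change -1.77, adjusted p = 0.0109) and Fn1 (-1.28, adjusted p = 0.00553) were lower past edgeR's quasi-likelihood test as well, and so they were without control replicate 2 (-2.60, adjusted p = 0.0275, and -1.91, adjusted p = 0.0284). With the ribosomal RNA class as a term, the ependymal marker Foxj1 was higher (0.50, adjusted p = 0.0192 in edgeR's quasi-likelihood test). The part of these cells in the values of the 6 genes was not tested.

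**Figure D4:**
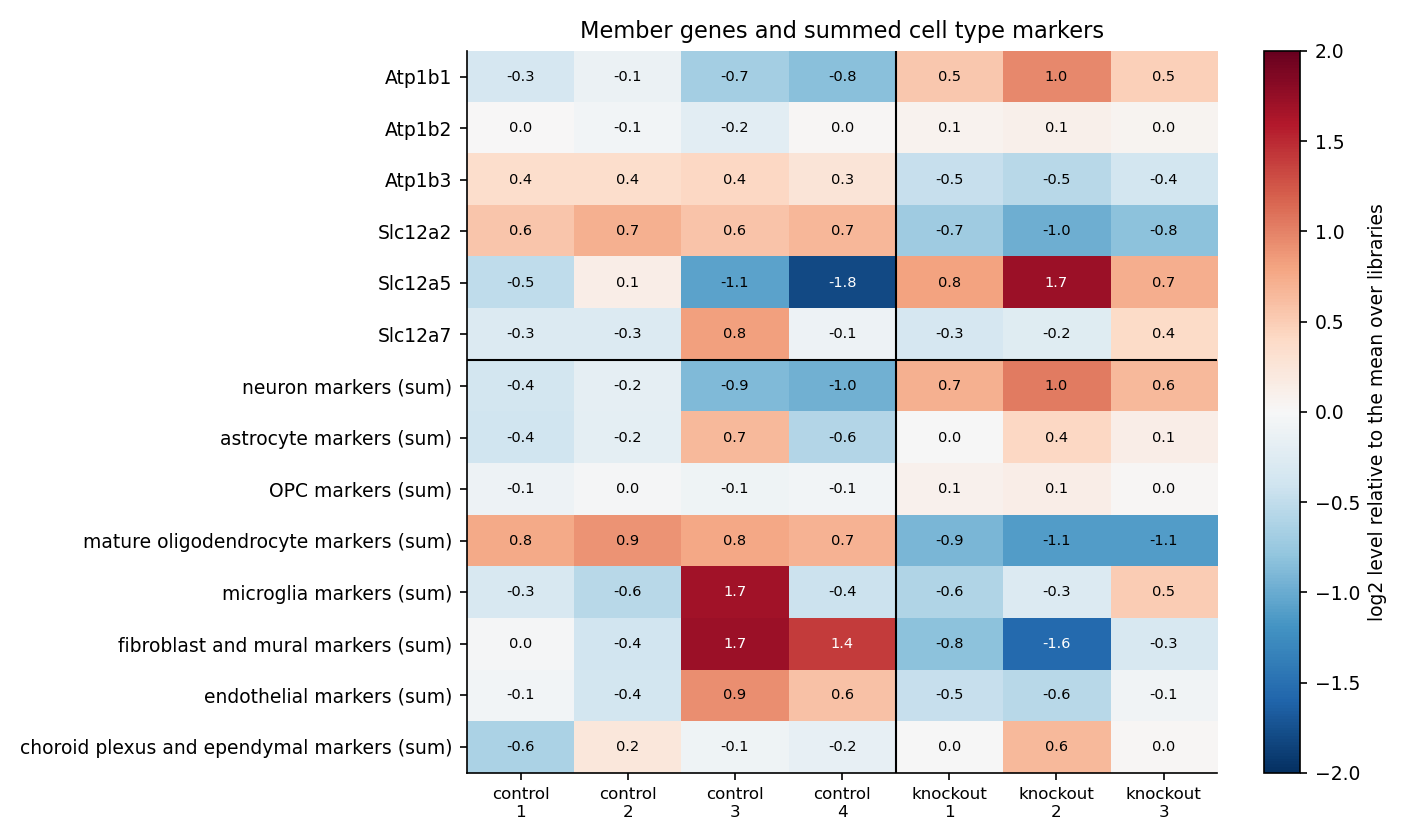
Log2 level of the 6 genes (top) and of the summed markers of 8 cell types (bottom) in each library, relative to the mean of the row over the 7 libraries. Red is higher and blue is lower. Slc12a5 and Atp1b1 run with the neuron marker sum. Slc12a2 and Atp1b3 stand on the same side as the mature oligodendrocyte marker sum in all libraries. In each group Slc12a7 is highest in replicate 3, where the microglia, the fibroblast and mural, and the endothelial marker sums are also highest.

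Levels were compared between the genes as normalized counts per kilobase of exon. In the controls the order was Atp1b2 with 6585 ± 485 (SD, n = 4), Slc12a2 with 4070 ± 209, Atp1b3 with 3031 ± 131, Atp1b1 with 1964 ± 446, Slc12a7 with 81.4 ± 34.0 and Slc12a5 with 28.8 ± 15.7. No neighbours in this order had overlapping ranges. In the knockouts the order was Atp1b2 with 7210 ± 141 (SD, n = 3), Atp1b1 with 4295 ± 817, Atp1b3 with 1736 ± 111, Slc12a2 with 1479 ± 132, Slc12a5 with 100.1 ± 40.9 and Slc12a7 with 73.4 ± 21.2. Here Slc12a5 and Slc12a7 overlapped, and Atp1b3 and Slc12a2 came close, with a lowest library of 1632 and a highest library of 1601. Slc12a2 thus moved from the position after Atp1b2 in the controls to a position below all 3 beta subunits in the knockouts, while the pump genes and Slc12a2 stayed far above the 2 potassium-chloride cotransporters in both groups.

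Windows of 250 bases before annotated starts were taken from RefSeq (GRCm38.p6) for 4 of the 6 genes, and bases that belong to exons were left out. Windows of Atp1b1, Atp1b3 and Slc12a5, genes that changed in opposite directions, are shown because the deleted factor belongs to a family that binds CACCC and GC boxes. Each was searched on both strands for 6 spellings of a Klf motif, made of an A or a C, then a C, then an A, a G or a T, and then CCC (ACACCC is one of them and CCGCCC another), with overlapping matches counted, and capitals mark the matches.
Atp1b1 chr1:164458356-164458605, minus strand: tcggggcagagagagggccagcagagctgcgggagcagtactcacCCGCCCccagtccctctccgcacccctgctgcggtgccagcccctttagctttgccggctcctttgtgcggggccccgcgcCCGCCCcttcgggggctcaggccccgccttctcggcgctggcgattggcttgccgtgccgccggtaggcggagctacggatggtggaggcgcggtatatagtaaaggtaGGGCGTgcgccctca
Atp1b3 chr9:96364443-96364681, minus strand: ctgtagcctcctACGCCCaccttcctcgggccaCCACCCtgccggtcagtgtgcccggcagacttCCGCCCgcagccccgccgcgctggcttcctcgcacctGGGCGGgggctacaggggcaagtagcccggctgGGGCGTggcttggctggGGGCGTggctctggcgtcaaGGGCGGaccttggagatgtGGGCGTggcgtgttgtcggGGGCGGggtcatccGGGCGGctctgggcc
Slc12a5 chr2:164960596-164960801, plus strand: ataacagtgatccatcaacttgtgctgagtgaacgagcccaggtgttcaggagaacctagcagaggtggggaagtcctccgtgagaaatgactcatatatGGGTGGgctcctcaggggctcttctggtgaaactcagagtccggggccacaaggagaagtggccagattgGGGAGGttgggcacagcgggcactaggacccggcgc

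The Atp1b3 window held 10 matches, the Atp1b1 window 3 and the Slc12a5 window 2. Of 32851 RefSeq windows searched in this way, 72.6% held at least 1 match and the median was 1. As many or fewer matches were found in 99.5% of these windows for Atp1b3, in 78.7% for Atp1b1 and in 67% for Slc12a5. Slc12a7, which did not pass the test, had 2 overlapping windows with 7 and 9 matches, a second Atp1b3 window had 1 and a second Slc12a5 window had 2. These windows are rich in G and C, with 73.6% in the Atp1b3 window and 70.4% in the Atp1b1 window against a median of 52.4%. A match is a run of letters, and binding of KLF13 at these windows was not analysed here.

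Of 65 other genes of ion transport in 5 lists, 58 were tested, of which 12 were higher and 15 were lower past the test. The shares of all genes tested that were higher or lower are the 11.6% and 12.2% given above. The median log2 fold change over the 58 genes was -0.08. Without knockout replicate 2 the numbers were 6 higher and 12 lower, and without knockout replicate 1 they were 7 and 8.

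Proteins that associate with the pump were the first list. Of its 9 tested genes 2 were higher and none was lower, with a median log2 fold change of 0.14. Fxyd6, a small membrane protein that tunes the pump, rose from 2139 ± 561 to 6337 ± 1153 normalized counts (log2 fold change 1.57 with a standard error of 0.22, adjusted p = 0.00396 in edgeR's quasi-likelihood test). Nkain3, which encodes a protein that interacts with pump subunits, had 227.5 ± 36.5 and 345.1 ± 33.9, with a log2 fold change of 0.60 (adjusted p = 0.0269 in edgeR's quasi-likelihood test). The call of Nkain3 was lost without control replicate 4 or without any 1 of the knockout libraries, with log2 fold changes of 0.53 to 0.67 and adjusted p-values of 0.0524 to 0.0788 in edgeR's quasi-likelihood test, and with the replicate block at 0.55 (adjusted p = 0.0848).

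Of the other SLC12 transporters, Slc12a9 and Slc12a8 were tested. Slc12a9 fell from 5043 ± 909 to 3252 ± 547 normalized counts (log2 fold change -0.63 with a standard error of 0.17, adjusted p = 0.0323 in edgeR's quasi-likelihood test). This call was lost in 5 of the 7 fits that left out 1 library, namely without control replicates 2, 3 or 4 or knockout replicates 1 or 3, with log2 fold changes of -0.62 to -0.53 and adjusted p-values of 0.0510 to 0.114. Slc12a8 was low at 21.7 ± 4.01 and 27.2 ± 2.19 and had a log2 fold change of 0.33 (adjusted p = 0.363 in edgeR's quasi-likelihood test).

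WNK kinases act through the kinases SPAK (Stk39) and OSR1 (Oxsr1), which switch NKCC1 on and potassium-chloride cotransporters off by phosphorylation. All 13 genes of this pathway list were tested, of which 2 were higher and 6 were lower, with a median log2 fold change of -0.09. Klhl2, an adaptor that marks WNK kinases for degradation, fell from 8432 ± 800 to 3648 ± 161 normalized counts (log2 fold change -1.21, standard error 0.09, adjusted p = 0.000174 in edgeR's quasi-likelihood test). Stk39 fell from 5382 ± 670 to 2547 ± 168 (log2 fold change -1.08, standard error 0.11, adjusted p = 0.000823), and Wnk1, with the highest mean count of the list, from 24220 ± 702 to 16790 ± 1811 (log2 fold change -0.53, standard error 0.08, adjusted p = 0.00475). The 2 higher genes were Klhl3, a relative of Klhl2 with the same role, at 123.2 ± 34.8 and 299.5 ± 65.2 normalized counts, and the kinase gene Wnk3 at 793.2 ± 136 and 1148 ± 45.1, both named after their values were seen. A kinase and an adaptor that lowers WNK kinases thus fell side by side. The list had 3 lower genes without knockout replicate 1 and 1 higher gene without control replicate 4, knockout replicate 1 or knockout replicate 2.

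Among 20 tested carriers and channels of chloride and bicarbonate, 2 were higher and 6 were lower, with a median log2 fold change of -0.13. The 2 genes with the lowest adjusted p encode subunits of the volume-regulated anion channel. Lrrc8b fell from 12640 ± 677 to 6115 ± 557 normalized counts (log2 fold change -1.05, standard error 0.08, adjusted p = 0.000229 in edgeR's quasi-likelihood test), as did Lrrc8c from 4437 ± 402 to 2000 ± 235 (log2 fold change -1.15, standard error 0.11, adjusted p = 0.000562). Other subunits of this channel, Lrrc8a (log2 fold change -0.02, adjusted p = 0.914) and Lrrc8d (-0.03, adjusted p = 0.658), did not pass the test and were named after their values were seen. The endosomal exchanger gene Clcn3 had the highest mean count of the list over all 7 libraries, with 10590 ± 459 in the controls and 9529 ± 355 in the knockouts, with a log2 fold change of -0.15 (adjusted p = 0.0950). The 2 higher genes, named after their values were seen, were the sodium-bicarbonate cotransporter gene Slc4a4, which is also one of the astrocyte markers, at 5399 ± 2005 and 11220 ± 881 normalized counts, and its relative Slc4a10 at 177.4 ± 37.2 and 397.2 ± 70.4. Only 1 gene of this list was higher without control replicate 3 or without any 1 of the knockout libraries.

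Sodium and calcium exchangers, which draw on the sodium gradient of the pump, and calcium pumps made up the last list. All 14 genes were tested, with 6 higher, 2 lower and a median log2 fold change of 0.22. Slc24a2, a potassium-dependent sodium-calcium exchanger, had the largest change of all 58 genes. Its mean was 2917 ± 149 normalized counts in the controls and 373.7 ± 49.8 in the knockouts (log2 fold change -2.96 with a standard error of 0.10, adjusted p = 1.94e-05 in edgeR's quasi-likelihood test). Atp2b4, a calcium pump of the plasma membrane, rose from 1210 ± 251 to 2860 ± 350 (log2 fold change 1.24, standard error 0.16, adjusted p = 0.00279). Atp2a2, the calcium pump of the endoplasmic reticulum, had 20440 ± 1146 and 17330 ± 655 and a log2 fold change of -0.24 (adjusted p = 0.0331), and this call was lost without control replicates 1 or 2 or any 1 of the knockout libraries, at adjusted p-values of 0.0640 to 0.114. Without knockout replicate 2 the list had 3 higher genes.

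**Figure D5:**
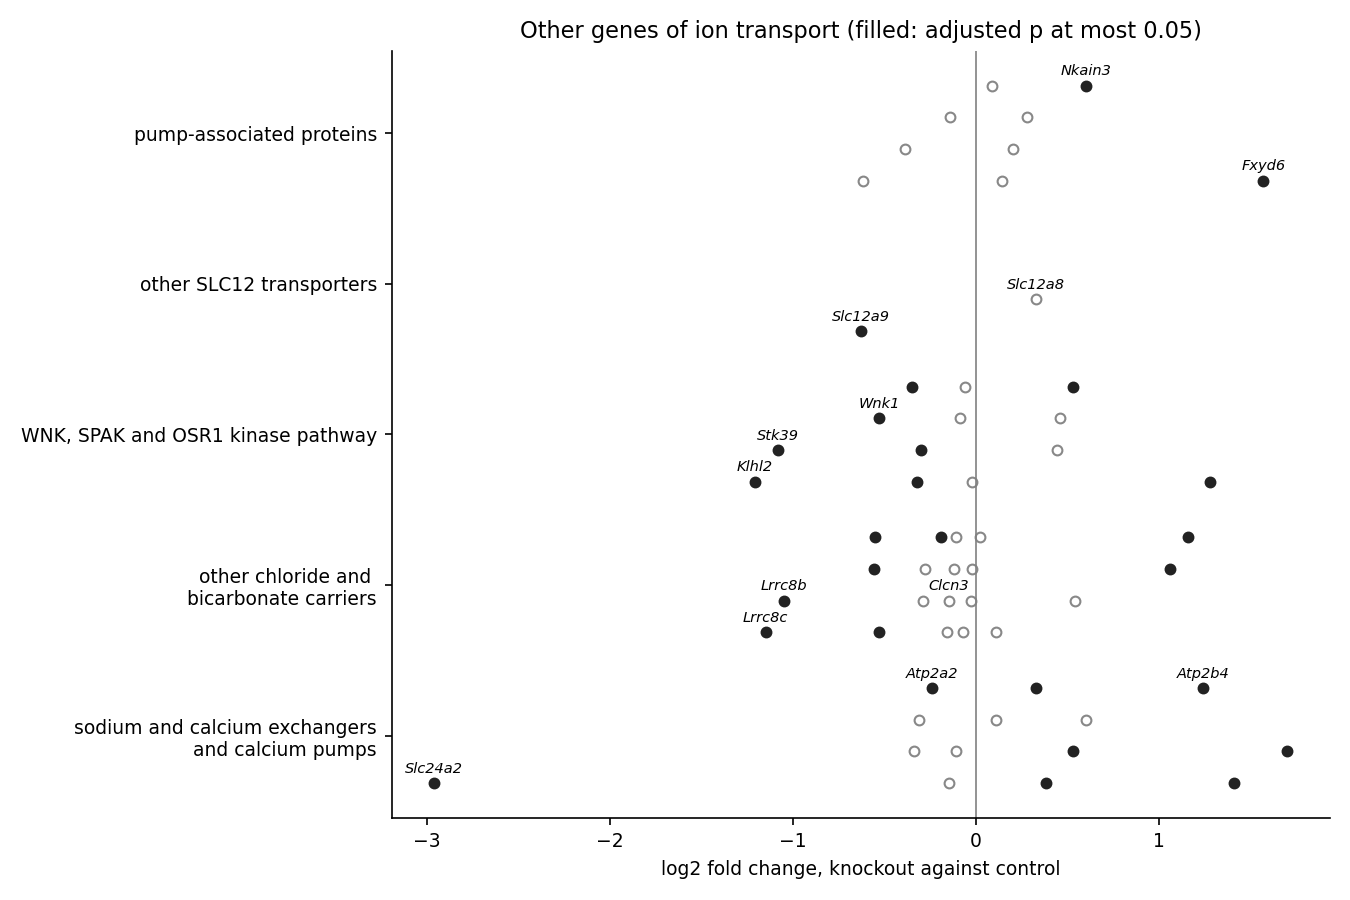
Log2 fold change (horizontal axis) of the 58 tested genes of the 5 ion transport lists (rows), knockout against control, with filled points at an adjusted p no higher than 0.05 in edgeR's quasi-likelihood test. Heights within a row only separate the points. Slc24a2 (-2.96) stands furthest to the lower side, and the WNK and chloride carrier lists each hold 6 lower and 2 higher genes.

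Genes with the pattern most like each of the 6 over the 7 libraries were searched among 13819 genes by Pearson's r of log2 CPM. With 7 libraries in 2 groups, such values mostly reflect the step between the groups where there is one. Atp1b1 was closest to Rpp25, Phgdh and Ndrg4 (r = 0.998 to 0.999), Slc12a5 to Unc13a, Dlg5 and Ank1 (r = 0.998 to 0.999), Atp1b3 to Serinc5, Pde8a and Ccnyl1 (r = 0.999 to 1.000) and Slc12a2 to Arhgap28, Prr5l and Sorbs3 (r = 0.998 to 0.999). Slc12a7, without such a step, was closest to Rassf3, Bcl2a1b and Acsl5 (r = 0.993 to 0.995), and Atp1b2 to Flvcr2, Pcdhga4 and Cask (r = 0.981 to 0.985). Among the 6 genes themselves, Atp1b1 and Slc12a5 had r = 0.98, as did Atp1b3 and Slc12a2. Between Atp1b1 and Slc12a2 r was -0.92. All these genes share the same libraries, and the values are descriptions only.

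The share of ribosomal RNA reads split each group, so that it was also fitted beside the group. The log2 fold changes were then 1.17 for Atp1b1, 0.12 for Atp1b2, -0.81 for Atp1b3, -1.47 for Slc12a2, 1.90 for Slc12a5 and -0.08 for Slc12a7, and the same 4 genes passed the test.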

How the data were processed

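RNA was measured in 7 libraries of cultured mouse oligodendroglia. The authors trimmed reads with Trimmomatic 0.36, mapped them with STAR 2.5.2b and used Subread 1.5.2 to count reads that hit exons uniquely, and the deposited values are whole-number counts per gene on GRCm38 without normalization. The strand setting and annotation release are not given in the sources used here. Symbols were found for 48970 of 49315 identifiers. Exon lengths and overlaps came from the exon lengths and positions deposited with the counts.

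Groups and replicate numbers came from the sample labels, and the numbers name biological replicates. The test was that of edgeR 4.0.16 in R 4.3.3 (filterByExpr by group, TMM factors, robust quasi-likelihood fit with the group as its only term, Benjamini-Hochberg adjustment over 18352 genes). This was tested on simulated data as a check of the code, which does not establish the power for changes of the sizes reported here. A gene passed the test when its adjusted p was 0.05 or lower and was called when its log2 fold change was also 1 or more in size. Ratios and shares were compared by exact permutation tests in scipy 1.17.1. Counts of 3 or fewer were treated as the limit that a count of 0 allows, and this covers counting error only.

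The 6 genes, the lists and the tests were chosen with earlier results of these data known. Named by rule were the 6 genes and Klf13, of each ion transport list the 2 genes with the lowest adjusted p and the one with the highest mean, of each marker list the 2 with the highest means, and the 3 genes with the highest correlation to each of the 6, among genes with a mean of at least 20 normalized counts (log2 CPM with a prior count of 2). Deviations from the group means of libraries with the same replicate number correlated at 0.11, 0.46 and 0.17 over all tested genes, against -0.53 to 0.20 for different numbers, the highest of which is above 2 of the same-number pairs, and the number was fitted as a block in an alternative. Other alternatives were DESeq2 1.42.0 and its size factors, upper quartile factors, library sizes without the ribosomal RNA genes, no filter, at least 10 counts in every library, the ribosomal RNA class as a term, and each library left out.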

Additional observations from a re-analysis of the deposited data

Results flagged for a closer look

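Among 11 sets of control values examined (the 6 genes, Klf13, the cotransporter ratio and the 3 beta subunit shares), 2 held a library far from the other 3, where chance flags about 1 in 20 groups. Slc12a7 was at 677.8 normalized counts in control replicate 3, against 317.8 to 356.6 in the other controls. The Atp1b3 share of beta subunits was 29.52% in control replicate 3, against 25.1% to 25.2% in the others. Control replicate 3 also had the highest summed markers of microglia (78700 normalized counts), astrocytes (641500), fibroblast and mural cells (77020) and endothelial cells (1130). The 3 knockout libraries are too few for this examination.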

How the results depend on the processing

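Under 15 alternatives each, the log2 fold changes of Atp1b1 (0.96 to 1.27), Atp1b3 (-0.85 to -0.76) and Slc12a2 (-1.39 at its smallest) stayed past the test and that of Atp1b2 (0.08 to 0.18) stayed short of it. Slc12a5 passed in 10 of 15 and failed without the filter on low counts (1.80, adjusted p = 0.105 in edgeR's quasi-likelihood test, with 34026 genes to adjust over) and in 4 fits without 1 library, where all such fits ranged from 1.41 to 2.20. Its adjusted p ranged from 0.000437 (DESeq2's Wald test) to 0.105. Slc12a7 ranged from -0.40 to 0.19 with 1 library left out, with the sign turned without control replicate 3 (0.19). Without the filter, 1 of the 6 genes was higher and 1 was called higher. With 1 library left out these numbers were 1 to 2 and 0 to 2. The cause of these changes was not tested.

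With the replicate block the log2 fold changes were 1.02 for Atp1b1, 0.16 for Atp1b2, -0.83 for Atp1b3, -1.45 for Slc12a2, 1.56 for Slc12a5 and -0.16 for Slc12a7, and no call among the 6 changed. Of the other named genes, Nkain3 lost its call and Col1a1 and Fn1 gained one. Control replicate 4 has no partner and carries no information in that fit. No block was fitted to the ratio and shares. Without division by exon length the differences in share were 13.1, -3.93 and -9.19 points for Atp1b1, Atp1b2 and Atp1b3. The log2 difference of the ratio stays at 3.36 by construction, since exon length cancels between the groups.

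In the ion transport lists, 6 to 13 genes were higher and 8 to 12 lower with 1 library left out. By list these ranges were 1 to 3 higher and 0 to 1 lower for pump-associated genes, 0 to 1 lower for other SLC12 transporters, 1 to 3 higher and 3 to 5 lower for the WNK pathway, 1 to 3 higher for chloride and bicarbonate carriers, and 3 to 7 higher and 1 to 2 lower for exchangers and calcium pumps. The pump-associated list had 1 lower gene with the replicate block and with the ribosomal RNA class as a term. Without the filter, no other SLC12 transporter was lower, 1 chloride or bicarbonate carrier was higher and 1 exchanger or calcium pump was lower, and the last count was also 1 with upper quartile factors.

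Some marker calls changed. Gfap was lost without knockout replicate 2 (0.54, adjusted p = 0.0880) and Dcx without the filter (2.43, adjusted p = 0.0675, edgeR's quasi-likelihood test). Gpr17 passed in 5 alternatives (0.26 to 0.31), Col1a1 and Fn1 in 3 each (the replicate block, DESeq2's Wald test and without control replicate 2) and Foxj1 with the ribosomal RNA class as a term (0.50). Other marker genes short of the test turned sign. With 1 library left out the log2 fold changes ranged from -0.60 to 0.60 for Apoe, from -0.61 to 0.51 for C1qa and from -0.70 to 0.48 for C1qb, each highest without control replicate 3, and from -0.77 to 0.20 for Ttr. Apoe was at 0.15 with the ribosomal RNA class as a term and Ttr at 0.02 with the replicate block.

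Over all genes, 2122 were higher and 2246 lower past the test, against 850 and 1317 without knockout replicate 2 and 1209 and 1254 without knockout replicate 1. Called genes were 729 higher and 565 lower, and 335 higher and 388 lower without knockout replicate 2. Slc12a5 and Slc12a7 had the fewest counts of the 6 genes, down to 102 and 169 in a library.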
